A study of Mus musculus with 6 samples.

Results

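Excitation-contraction calcium handling was followed through 10 genes, chosen by name and listed on the array as RYR1, TRDN, JPH2, CACNA1S, CACNG1, ATP2A1, ATP2A2, SLN, CASQ1 and CASQ2. Every probe of the deposited report with 1 of these target names, ignoring case, was taken, and the probes of a gene were kept apart. The 10 genes, of 30854 target names in all, had 16 of the 45281 probes, and 13 of these, for 9 genes, were among the 17890 probes tested. The cells were C2C12, a line of mouse myoblasts that fuse to form myotubes in culture. Myoblasts received 60 nM of a scramble siRNA or of an siRNA against DJ-1 (siDJ-1), were switched to differentiation medium 48 h later and were harvested as myotubes after 4 days. Each group had 3 arrays, and all 6 lay on 1 Illumina mouse BeadChip. The labels name a single cell line and do not say whether the arrays of a group came from separate cultures, so the p-values measure only the spread between these samples, which may be technical. Precision is limited throughout by the number of arrays.

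In skeletal muscle, depolarization of the membrane is sensed by the dihydropyridine receptor, a voltage-gated calcium channel whose pore subunit is coupled to the ryanodine receptor of the sarcoplasmic reticulum. The ryanodine receptor then releases calcium held in the lumen by calsequestrin, and the filaments contract. Relaxation follows when the SERCA pumps return calcium to the reticulum, a step that small membrane peptides such as sarcolipin inhibit.

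The label was checked first against the targeted gene and against cell markers. The intensity of the DJ-1 probe, listed as Park7, was 12019.5, 10900.4 and 12251.4 on scramble arrays and 5934.8, 6585.5 and 4233.7 on siDJ-1 arrays. No array of either group reached the range of the other, and the change was -1.16 on the log2 scale (standard error 0.14, limma adjusted p = 0.00344). Markers of differentiated myotubes were bright in both groups. Acta1, the skeletal actin, had a normalized log2 signal of 15.30 in scramble and 15.29 in siDJ-1 myotubes. Of 20 tested probes for the 10 myotube markers, all of which had a tested probe, 8 were lower, 2 were higher and 10 were not called at an adjusted p under 0.05. Among all tested probes of the array, 13.6% were called lower and 16.5% higher. The 10 calls on myotube markers fell to 5 (4 lower and 1 higher) without siDJ-1 replicate 1 or 3, to 6 with no filter and to 4 with an unmoderated test. The lower ones belonged to Des, Tnnt3, Myh8 (3 probes) and Ttn (3 probes), with the Myh8 probe of the largest change at -1.11. Both higher ones were other probes of Ttn, at 1.77 and 0.76 (the latter detected on 1 scramble and 3 siDJ-1 arrays, so that its call is no support for a rise), and the probes of the titin gene disagreed. The summed normalized signal of the myotube markers was 239752, 236148 and 233915 on scramble arrays and 198014, 208572 and 182984 on siDJ-1 arrays. Its part in the results that follow was not tested. In bulk RNA, fewer myotubes and less RNA per myotube cannot be told apart.

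Markers of other cells were read in the same way. Of the myoblast markers, Myod1 was lower (-0.90, adjusted p = 0.00317), Cdh15 had a change of -0.30 that was not called, Pax7 was not detected on any array, and Myf5 was not tested. Over 17 alternatives the Cdh15 change ran from -0.39 to -0.18 and was called lower under 5. Of 8 tested probes for proliferating cells, 6 had a positive change and 2 a negative one, with a median of 0.24. On 5 of them siDJ-1 was above scramble without overlap, beside 26.5% of all tested probes. The probe called in the main setting was lower (Ccnb1, -0.57), a call lost without siDJ-1 replicate 1 or 3 (adjusted p = 0.0584 and 0.0564). The brightest, of Cdk1, had a change of 0.30 that was not called, but it was called higher under 5 of 17 alternatives. With no background correction, with a 75th percentile shift and with a trend in the prior variance, 2 probes of this list were higher and 1 lower. With a filter of detection p under 0.01 on all 6 arrays, 3 were higher and 1 lower. The heart markers Nppa, Nppb, Myl7 and Tnni3 were not detected on any array, and Myh6, the remaining one, had a change of 0.68 that was not called. The Myh6 change was 0.30 with no background correction and ran from 0.39 to 0.95 with 1 array left out. It was called higher under 2 of 16 alternatives. Fibroblast markers were detected and lower, with 5 of 6 tested probes called (beside 13.6% of all tested probes called lower): Dcn at -1.34 and -1.79, Pdgfra at -0.58, Col1a1 at -0.47 and Col3a1, the brightest, at -0.42. The 5 calls fell to 2, both of Dcn, without scramble replicate 3, without siDJ-1 replicate 1 or 3 and with a 75th percentile shift, and to 3 with no filter and with the replicate number as a block. The summed normalized signal of the fibroblast markers was 24435.5, 23448 and 23969 on scramble arrays against 14886, 16862 and 14391.5 after siDJ-1, while Thy1 was not detected on any array. The smooth muscle actin Acta2, with 5 tested probes, was lower on 2 (-0.63 and -0.62) and not called on its brightest (-0.24), and Cnn1 and Myh11 were not tested. The summed signal of the smooth muscle markers was 74959.7, 85946 and 79895 against 63088, 66722 and 55285. Pparg was the tested adipocyte gene and was higher (1.06, or 0.61 with no background correction), a call lost without scramble replicate 3 (adjusted p = 0.0603), without siDJ-1 replicate 1, 2 or 3 (0.0571, 0.0606 and 0.0916), with no filter and with an unmoderated test, while Adipoq and Plin1 were not detected. Of the 4 tested osteoblast probes, limma called 0 (1 had an unadjusted p under 0.05, and an unmoderated test called 0), the brightest being Bglap at -0.53. The Bglap change was -0.23 with no background correction. It was called lower under 3 of 17 alternatives: with a filter of detection p under 0.01 on all 6 arrays, with array weights and without siDJ-1 replicate 2. The part of these markers in the results that follow was not tested.

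After siDJ-1, 4 of the 13 tested calcium-handling probes were lower and 1 was higher, while 8 were not called. The lower ones were Casq1, Cacng1, Cacna1s and 1 of 4 probes of Ryr1, and the higher one was a dim probe of Sln. That probe was detected on 1 scramble and 3 siDJ-1 arrays and so passed the filter through the group where it is high, and its call is no support for a rise. Across the whole array, 30.1% of tested probes were called, 13.6% lower and 16.5% higher. The groups did not overlap on 8 of the 13 probes, beside 48.5% of all tested probes. On 7 of them siDJ-1 was below scramble and on 1, that of Sln, above, beside 22% and 26.5%. The median change of the 13 probes was -0.29, beside 0.05 over all tested probes. Those 13 are the probes that passed the filter on dim signal and not the whole set. The 3 others, for Trdn, Jph2 and Sln, were too dim to be tested.

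**Figure D1:**
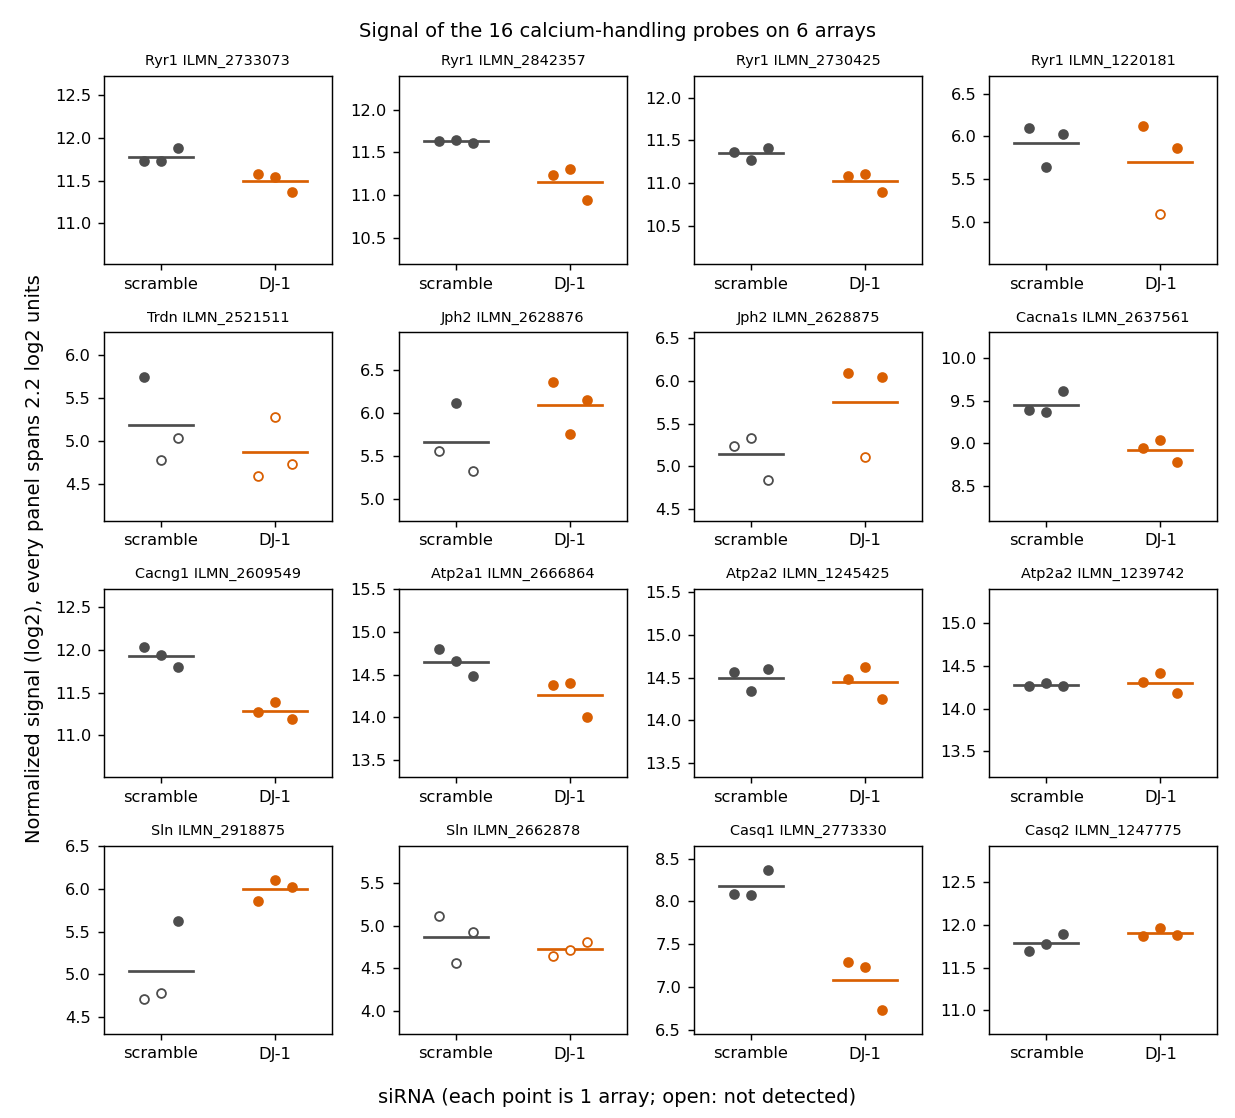
Normalized log2 signal (vertical axis) of each of the 16 probes on each of 6 arrays, grouped on the horizontal axis by siRNA. Each point is 1 array, an open point is an array on which the probe was not detected, and the line is the group mean. Casq1, Cacna1s and Cacng1 separate with siDJ-1 below scramble, Atp2a2 and Casq2 overlap, and the probes of Trdn and Jph2 and both of Sln lie near background.

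To show the DNA in front of these genes, the promoter table of RefSeq (GRCm38.p6) was searched by symbol. It matched 6 of the 10 genes in 7 windows: Ryr1, Jph2 (2 start sites), Cacna1s, Atp2a1, Casq1 and Casq2. The 250 bases upstream of the start are given for Casq1 and Cacna1s, which were called lower on their own probe, for Ryr1 and Atp2a1, whose bright probes had siDJ-1 below scramble without overlap, and for Casq2, which did not move with Casq1. They are written 5′ to 3′ on the strand of the gene, and capitals mark the E-box CANNTG, the letters that muscle regulatory factors of the MyoD family are known to bind.
Casq1 (chr1:172219896-172220145, minus strand): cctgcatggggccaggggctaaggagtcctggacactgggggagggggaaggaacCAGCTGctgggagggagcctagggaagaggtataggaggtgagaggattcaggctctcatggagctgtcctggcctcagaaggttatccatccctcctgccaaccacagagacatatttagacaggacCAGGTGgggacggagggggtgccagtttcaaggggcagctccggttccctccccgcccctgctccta
Cacna1s (chr1:136052561-136052810, plus strand): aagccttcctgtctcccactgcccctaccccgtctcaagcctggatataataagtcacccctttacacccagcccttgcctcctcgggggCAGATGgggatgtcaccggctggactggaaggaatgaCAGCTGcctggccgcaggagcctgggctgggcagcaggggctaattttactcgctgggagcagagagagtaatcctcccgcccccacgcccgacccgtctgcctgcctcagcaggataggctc
Ryr1 (chr7:29125152-29125401, minus strand): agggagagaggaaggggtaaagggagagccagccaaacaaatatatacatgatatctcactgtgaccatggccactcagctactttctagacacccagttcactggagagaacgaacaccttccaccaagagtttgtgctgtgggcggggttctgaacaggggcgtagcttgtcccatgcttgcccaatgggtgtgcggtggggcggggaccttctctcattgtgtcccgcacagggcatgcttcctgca
Atp2a1 (chr7:126463074-126463323, minus strand): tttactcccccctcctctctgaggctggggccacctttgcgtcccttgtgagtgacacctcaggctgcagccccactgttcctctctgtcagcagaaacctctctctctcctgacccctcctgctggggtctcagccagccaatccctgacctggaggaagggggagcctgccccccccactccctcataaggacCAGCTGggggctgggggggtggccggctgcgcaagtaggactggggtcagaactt
Casq2 (chr3:102086165-102086414, plus strand): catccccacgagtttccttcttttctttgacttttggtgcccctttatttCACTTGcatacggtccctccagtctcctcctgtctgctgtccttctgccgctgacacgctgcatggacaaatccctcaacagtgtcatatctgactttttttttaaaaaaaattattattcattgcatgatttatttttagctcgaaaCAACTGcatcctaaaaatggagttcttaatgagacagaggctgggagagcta

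The E-box reads the same on both strands, so each match counts once. Casq1, Cacna1s and Casq2 had 2 each, Atp2a1 and either Jph2 window had 1, and Ryr1 had 0, while 66.2% of 32841 windows of the same length held at least 1. The form CAGCTG, a subset of CANNTG, was present once in Casq1, Cacna1s, Atp2a1 and both Jph2 windows, and absent from Ryr1 and Casq2. The Jph2 windows overlap, and their match is the same site. It was found in 13% of all windows. The binding site of MEF2, another family of muscle transcription factors, was matched by its consensus in the Casq2 window and in no other of the 7, against 2.92% of all windows. These are matches of letters and do not show that a factor binds.

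Ryr1, the release channel of the sarcoplasmic reticulum, was lower on 1 of its 4 probes. On that probe (ILMN_2842357) the intensity was 3338, 3385 and 3131 on scramble arrays and 2558, 2957 and 1875 after siDJ-1. The scramble arrays lay close together, all siDJ-1 arrays were below them, and siDJ-1 replicate 3 was the lowest. The normalized log2 signal went from 11.63 ± 0.02 (SD, n = 3) to 11.16 ± 0.19 (SD, n = 3), a change of -0.47 (standard error 0.12, limma adjusted p = 0.0277). The next probe, ILMN_2730425, had normalized log2 signals of 11.37, 11.27 and 11.42 in scramble and 11.08, 11.10 and 10.89 in siDJ-1 myotubes. Its groups did not overlap, but its change of -0.32 was not called (adjusted p = 0.0594). For ILMN_2733073 the normalized log2 signals were 11.73, 11.73 and 11.89 against 11.58, 11.54 and 11.36, and a change of -0.29 was likewise not called (adjusted p = 0.087). Both were called with no background correction (0.018 and 0.0313) and with a trend in the prior variance (0.00861 and 0.0137), and ILMN_2730425 also with an offset of 50 (0.0442) and with a filter of detection p under 0.01 on all 6 arrays (0.0329). With a 75th percentile shift, in contrast, the changes of ILMN_2730425 and ILMN_2733073 shrank to -0.20 and -0.15 (limma adjusted p = 0.23 and 0.35). The fourth probe, ILMN_1220181, was dim, was detected on 3 scramble and 2 siDJ-1 arrays, and had a change of -0.23 with an interval from -0.88 to 0.42. In the main setting the 3 bright probes thus had changes of the same sign and of like size, 1 of them past the threshold. The call on ILMN_2842357 was lost without scramble replicate 1, 2 or 3 (adjusted p = 0.0523, 0.0704 and 0.0615) and without siDJ-1 replicate 1 or 3 (0.0712 and 0.0682), and over all alternatives its adjusted p ran from 0.00121 to 0.0712. It was also lost with a 75th percentile shift (0.0665), with 1 mean per gene over its probes (0.0575), with no filter (0.0626) and with an unmoderated test (0.0562), always with a negative change.

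The 2 other junction genes were near background. Triadin (Trdn) anchors calsequestrin to the release channel, and its probe was detected on 1 scramble array and on 0 siDJ-1 arrays, so it was not tested and no fold change is given. Junctophilin 2 (Jph2) tethers the reticulum to the surface membrane. Its tested probe, ILMN_2628876, had intensities of 185.2, 212.3 and 163.5 on scramble arrays and 214.9, 193.2 and 187.7 on siDJ-1 arrays. The groups overlapped, the probe was detected on 1 scramble array and on 3 siDJ-1 arrays, and the change of 0.42 was not called (adjusted p = 0.229). The probe passed the filter through the siDJ-1 group, and its change has no reliable size. That change was 0.14 with no background correction and ran from 0.25 to 0.66 with 1 array left out. Its other probe, ILMN_2628875, was detected on 2 siDJ-1 arrays and on 0 scramble arrays. The groups overlapped, with siDJ-1 replicate 2 (168.5) below 2 scramble arrays (171.6 and 179.4), so no fold is given.

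Of the voltage sensor, the pore subunit and the gamma subunit were lower. Cacna1s encodes the pore and voltage-sensing subunit of the dihydropyridine receptor, and its probe had intensities of 839, 819 and 892.7 on scramble arrays and 620.1, 714.5 and 498.5 after siDJ-1. Every siDJ-1 array was below every scramble array, the nearest being siDJ-1 replicate 2. The normalized log2 signal was 9.45 ± 0.13 (SD, n = 3) against 8.92 ± 0.13 (SD, n = 3), a change of -0.53 (standard error 0.12, limma adjusted p = 0.0189) that left 69.2% of the scramble signal. Cacng1, the gamma subunit of the same channel, had intensities of 4307, 4115 and 3577 on scramble arrays and 2637, 3132 and 2206 after siDJ-1. The groups again did not overlap, and siDJ-1 replicate 3 was again the lowest array. Its normalized log2 signal was 11.92 ± 0.12 (SD, n = 3) against 11.28 ± 0.10 (SD, n = 3), a change of -0.64 (standard error 0.11, limma adjusted p = 0.00849) that left 64.1% of the scramble signal. Cacng1 was called lower under all 17 alternatives, with changes from -0.70 to -0.52. The call on Cacna1s was lost without scramble replicate 3 (adjusted p = 0.0503), without siDJ-1 replicate 1 or 3 (0.064 and 0.0664) and with the replicate number as a block (0.054), within a range of 0.00359 to 0.0664 over the alternatives.

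Among the calcium stores, the skeletal calsequestrin was lower and the cardiac one was not called. Casq1, the main calcium-binding protein in the lumen of fast fibres, had intensities of 424.2, 426 and 455.1 on scramble arrays and 288.6, 300.1 and 217.6 after siDJ-1. The siDJ-1 arrays were all below the scramble arrays, with replicate 3 well under the other 2. In normalized log2 signal this was 8.18 ± 0.17 (SD, n = 3) against 7.09 ± 0.31 (SD, n = 3), a change of -1.09 (standard error 0.18, 95% confidence interval -1.52 to -0.67, limma adjusted p = 0.00714). It was the largest fall among the 13 tested probes, and it was called under all 17 alternatives. Its size depended on the background correction, since the change was -0.65 when none was made, and it ran from -1.20 to -0.65 over the alternatives. Casq2, the isoform of heart and slow muscle, had intensities of 3468, 3677 and 3777 on scramble arrays and 3903, 4607 and 3504 on siDJ-1 arrays. Its groups overlapped, and the change of 0.12 in normalized log2 signal was not called (interval -0.12 to 0.36, adjusted p = 0.396), with a positive value under all 17 alternatives.

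**Figure D2:**
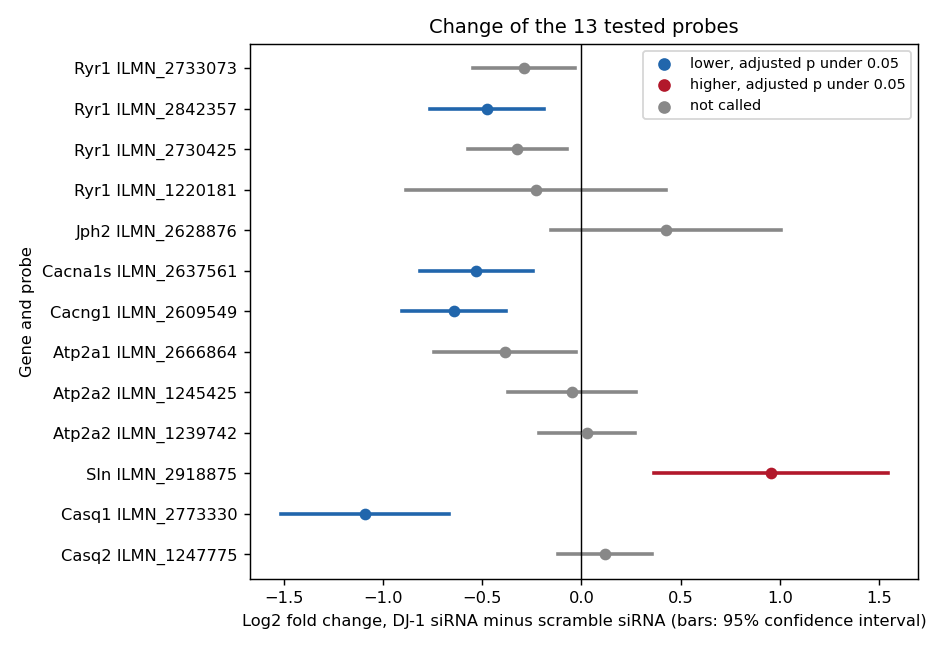
Log2 fold change of siDJ-1 against scramble siRNA (horizontal axis) for the 13 tested probes (vertical axis), with 95% confidence intervals as bars and colour for the call at an adjusted p under 0.05. Casq1 has the largest fall (-1.09), Cacna1s and Cacng1 lie at -0.53 and -0.64, and the point of Sln is that of a probe near background on 2 of 3 scramble arrays.

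The pumps were bright on every array, and limma called 0 of their 3 probes, of which Atp2a1 had an unadjusted p under 0.05 (0.0378). Atp2a1 encodes SERCA1, the pump of fast fibres, and its intensity was 26336, 25599.8 and 21577 on scramble arrays and 21571, 24331 and 15529 after siDJ-1. In these deposited intensities the groups overlapped, because siDJ-1 replicate 2 exceeded scramble replicate 3. After normalization they did not, with log2 signals of 14.80, 14.65 and 14.49 against 14.38, 14.40 and 14.002. The change of -0.38 (standard error 0.15, interval -0.74 to -0.03) was not called (limma adjusted p = 0.0957), and it was called under 2 of 17 alternatives, with no background correction (0.0263) and with a trend in the prior variance (0.00757), within a range of 0.00757 to 0.331. The change itself ran from -0.48 to -0.17, being -0.17 with a 75th percentile shift and -0.25 without siDJ-1 replicate 3.

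Atp2a2 encodes SERCA2, forms of which include the pump of slow and cardiac muscle. Which transcript its probes read is not given in the sources used here. Its brighter probe, ILMN_1245425, had normalized log2 signals of 14.57, 14.34 and 14.59 in scramble and 14.49, 14.62 and 14.25 in siDJ-1 myotubes. The groups overlapped fully, with siDJ-1 arrays both highest and lowest. The change was -0.05 (interval -0.37 to 0.27, adjusted p = 0.816) with a sign that turned with a 75th percentile shift (0.16), and that of its other probe, ILMN_1239742, was 0.03 (interval -0.21 to 0.27, adjusted p = 0.856), turning with the mean of both probes (-0.01). No direction can be given for this pump.

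Sarcolipin (Sln), the pump inhibitor, was measured near background. Its probe ILMN_2918875 had intensities of 137.9, 152 and 174.5 on scramble arrays and 189.5, 211.1 and 182.6 on siDJ-1 arrays, where it was detected on 1 and on 3 arrays. All siDJ-1 arrays were above all scramble arrays, and in intensity the nearest were siDJ-1 replicate 3 and scramble replicate 3. After normalization the nearest were siDJ-1 replicate 1 (5.86) and scramble replicate 3 (5.62). The probe passed the filter through the siDJ-1 group, and 2 of 3 scramble arrays were not above background, so the change of 0.95 (limma adjusted p = 0.0294) has no reliable size and the call is no support for a rise. The change was 0.34 with no background correction, and the call was lost with no filter (adjusted p = 0.0634), with an unmoderated test (0.0987), without scramble replicate 1 or 2 (0.0612 and 0.0813) and without siDJ-1 replicate 1, 2 or 3 (0.0691, 0.0837 and 0.0925), within a range of 0.0115 to 0.0987. The other probe of the gene, ILMN_2662878, was not detected on any array.

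Whether the genes of each isoform pair, calsequestrin or SERCA, changed unequally was asked within each array, as the difference between their normalized log2 signals. Such a difference follows both probes on the same array and does not say which transcript is more abundant. For Casq1 minus Casq2 it was -3.60, -3.69 and -3.52 on scramble arrays and -4.58, -4.73 and -5.15 after siDJ-1. Every siDJ-1 array was below every scramble array, by a mean of -1.21, and the two-sided exact permutation test gave p = 0.1, the smallest that 3 arrays against 3 allow (0.2 after Benjamini-Hochberg adjustment over the 2 pairs). For Atp2a1 minus Atp2a2 it was 0.23, 0.32 and -0.11 against -0.10, -0.22 and -0.25. Here scramble replicate 3 lay within the siDJ-1 range, and the mean change of -0.34 had an exact permutation p = 0.2 (adjusted 0.2). Neither comparison could pass a threshold of 0.05 in this permutation test with this number of arrays. The calsequestrin difference was smaller without background correction (-0.76).

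**Figure D3:**
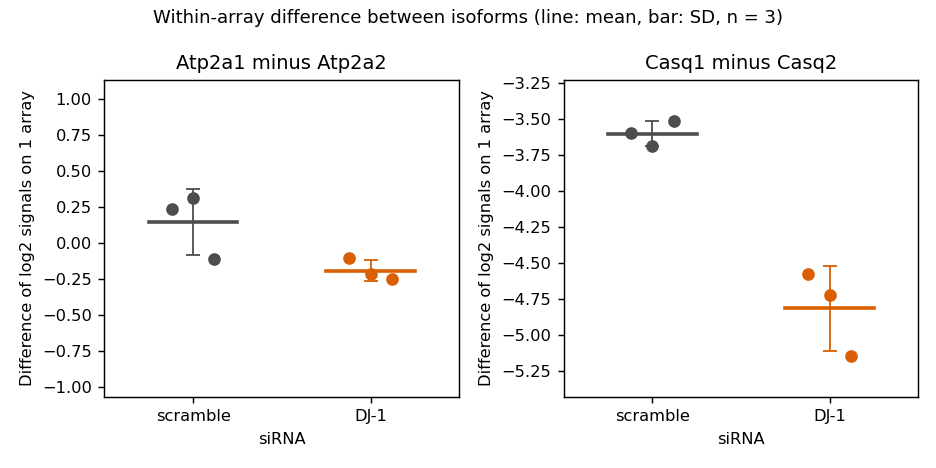
Difference of normalized log2 signals on each array (vertical axis) for 2 isoform pairs, by siRNA (horizontal axis). Each point is 1 array, the line is the mean and the bar is the SD (n = 3). The calsequestrin difference is lower on all siDJ-1 arrays (-4.58 to -5.15) than on any scramble array, while the ranges of the SERCA difference overlap narrowly, between -0.11 and -0.10.

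The partners of these proteins were read from 8 lists of other calcium genes with 95 tested probes, and 17 of these were lower and 8 higher, with a median change of -0.07. The share called was 26.3% (17.9% lower and 8.42% higher), less than the 30.1% of all tested probes (13.6% lower and 16.5% higher). The count of 25 calls was 14 without scramble replicate 2, 16 without scramble replicate 3, and 12 without siDJ-1 replicate 1 or 3. Pvalb, Camk2b, Sypl2, Jsrp1, Itpr3 and the Cacna2d1 probe with the larger change were called under every alternative that kept them, and the other called probes named here lost their call under at least 1. Those at the junction and the voltage sensor had the most calls. Of 18 tested probes for 9 genes, 7 were lower and 1 was higher, with a median of -0.21. The 8 calls fell to 5, all lower, with 1 mean per gene over its probes. They fell to 6 without scramble replicate 2 or siDJ-1 replicate 1 or 3. The count was also 6 with an unmoderated test and with a filter of detection p under 0.01 on all 6 arrays. The largest changes were on probes of Asph (-1.63, adjusted p = 0.00289), Sypl2 (-1.54, adjusted p = 0.00317) and Cacna2d1 (-1.20, adjusted p = 0.00499). Sypl2 encodes mitsugumin 29, a protein of the triad membrane, with intensities of 331.6, 292.7 and 243.8 on scramble arrays and 180.5, 195.2 and 167.6 after siDJ-1. Cacna2d1 is the alpha-2/delta subunit of the same calcium channel, and its probe read 333.9, 390.6 and 386.2 against 220.1, 265.6 and 206.3. Both pairs of groups were separate, with siDJ-1 replicate 3 lowest in each in these intensities. After normalization the lowest Cacna2d1 array was siDJ-1 replicate 1 (6.45, beside 6.54 on replicate 3). The size of these changes depended on the background correction, being -0.75, -0.62 and -0.64 for Asph, Sypl2 and Cacna2d1 when none was made.

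Asph yields junctin, junctate and an aspartyl hydroxylase from 1 gene, and its probes went in opposite directions. ILMN_1259678 had intensities of 347.7, 356.4 and 313.7 on scramble arrays and 197, 221.6 and 171.1 after siDJ-1. ILMN_1233759, chosen after its values were seen, had 771.3, 798.9 and 820.6 against 1331, 1200.3 and 1186, a change of 0.78 (adjusted p = 0.00753). All siDJ-1 arrays were below scramble on the former probe and above it on the latter, and the 4 other tested probes of the gene were not called. Which transcript each probe reads is not given in the sources used here. Also named after their values were seen, a second probe of Cacna2d1 (-0.58), Jsrp1 (-0.63), Stac3 (-0.61) and Cav3 (-0.59) were lower. The third probe of Cacna2d1 (-0.11) and the probe of the beta subunit gene Cacnb1 (0.05), also named after their values were seen, were not called. Stac3 is an adaptor needed for coupling of the channel to the ryanodine receptor, Jsrp1 encodes the junctional protein JP-45, and Cav3 is the muscle caveolin. The brightest probe of the list, for the tubule protein Bin1, had a change of -0.12 that was not called and turned to 0.02 with a 75th percentile shift.

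Among calcium buffers and store proteins, 3 of 12 tested probes were lower and 1 was higher, with a median of -0.03. The 4 calls fell to 2 without scramble replicate 3 or siDJ-1 replicate 3 and to 1 without siDJ-1 replicate 1. The parvalbumin gene Pvalb, whose product binds calcium in the cytosol of fast fibres, had the largest fall of all the calcium lists. Its intensity was 1943, 1132 and 1482 on scramble arrays and 355.9, 352.4 and 281.5 after siDJ-1. Every siDJ-1 array was far below the lowest scramble array, though the scramble arrays themselves were spread. The change was -2.73 (standard error 0.23, limma adjusted p = 0.00267), and it was called under all 17 alternatives, between -2.98 and -2.12. Sarcalumenin (Srl), a luminal glycoprotein, was lower on both tested probes (-0.48 and -0.55). Calumenin (Calu) was higher on 1 of 4 probes (0.46, named after its values were seen), while its brightest had a change of -0.04 that was not called and turned to 0.10 with a 75th percentile shift. Hrc, Tmem38a and Tmem38b, also named after their values were seen, had changes between -0.08 and 0.02 and were not called.

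The other release channels had few calls. Of 16 tested probes, Itpr3 was higher (0.63, adjusted p = 0.0106), Itpr1 was lower (-0.31, adjusted p = 0.0427), and the median was -0.06. The 2 calls fell to 1 without any 1 of the 6 arrays. Both encode inositol trisphosphate receptors, which release calcium from the reticulum of many cells. The brightest uncalled probe, of the calmodulin gene Calm3, had a change of -0.05 that turned to 0.11 with a 75th percentile shift. Among other pumps, exchangers and pump regulators, limma called 0 of 7 tested probes (0 also at an unadjusted p under 0.05, with an unmoderated test and under each of the other alternatives), with a median of -0.29. The brightest of these was Mrln, the gene of the pump inhibitor myoregulin, at -0.12. For store-operated entry, the channel gene Orai1 was lower (-0.50, adjusted p = 0.029) among 6 tested probes with a median of -0.01. The count of 1 fell to 0 when any 1 scramble array was left out and without siDJ-1 replicate 1 or 3. It was also 0 with no filter and with an unmoderated test. With no background correction and with a trend in the prior variance it was 2. The brightest uncalled probe, for the calcium sensor Stim1, had a change of -0.39 (adjusted p = 0.0964). That change ran from -0.50 to -0.20 over 17 alternatives and was called lower under 3. The other tested probe of Stim1, named after its values were seen, had a change of -0.01 (limma adjusted p = 0.958). Of the excitation channels, only a probe of the potassium channel gene Kcnj12 was bright enough to test, and it was lower (-1.18, adjusted p = 0.0186), a call lost without siDJ-1 replicate 3 (0.0663) and with an unmoderated test (0.0758), and the change was -0.48 with no background correction, while Scn4a, Clcn1 and Kcnj2 were not tested.

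Genes that read the calcium signal went in both directions. Of 25 tested probes of calcium-calmodulin signalling, 3 were lower and 3 were higher, with a median of -0.02. The 6 calls fell to 3 without scramble replicate 2 or siDJ-1 replicate 3 and to 2 without siDJ-1 replicate 1. Camk2b, a calmodulin-dependent kinase, had intensities of 1128, 1083.7 and 1237 on scramble arrays and 525.9, 702.6 and 480.4 after siDJ-1. The groups were clearly apart, and the change was -1.18 (standard error 0.14, limma adjusted p = 0.00365). Camk2g, of the same kinase family, was higher on both tested probes (0.78, or 0.46 with no background correction, and, named after its values were seen, 0.59). Of the calcineurin-regulated NFAT factors, Nfatc1 had a dim probe that was detected on 0 scramble and 3 siDJ-1 arrays. It passed the filter only through the group where it is high, so no fold is given and its place among the 3 higher probes is no support for a rise, and 3 other tested probes of the gene were not called. Named after their values were seen, a dim probe of Camk2a (-0.64) and the probe of Nfatc4 (-0.55) were lower. The Camk2a probe was called under 7 of the 16 alternatives that kept it, with a change of -0.21 and no call with no background correction, and a brighter Camk2a probe (-0.36) was not called. The call on Nfatc4 was lost without scramble replicate 2 or 3 (adjusted p = 0.0881 and 0.0678) and without siDJ-1 replicate 1 or 3 (0.11 and 0.107). The brightest uncalled probe, for the calcineurin subunit gene Ppp3cb, had a change of 0.08. In the mitochondrial list of 10 tested probes, Vdac1, a channel of the outer membrane, was higher on both probes (0.35 and 0.41), Letm1 was lower (-0.82), and the median was -0.01. The 3 calls of this list fell to 0 without scramble replicate 2 or 3, without siDJ-1 replicate 3 and with no filter. They fell to 1 without siDJ-1 replicate 1, with an unmoderated test and with the replicate number as a block. With that block both Vdac1 calls were lost. The brightest uncalled probe there, of Micu2, had a change of -0.06 that turned to 0.07 with a 75th percentile shift.

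**Figure D4:**
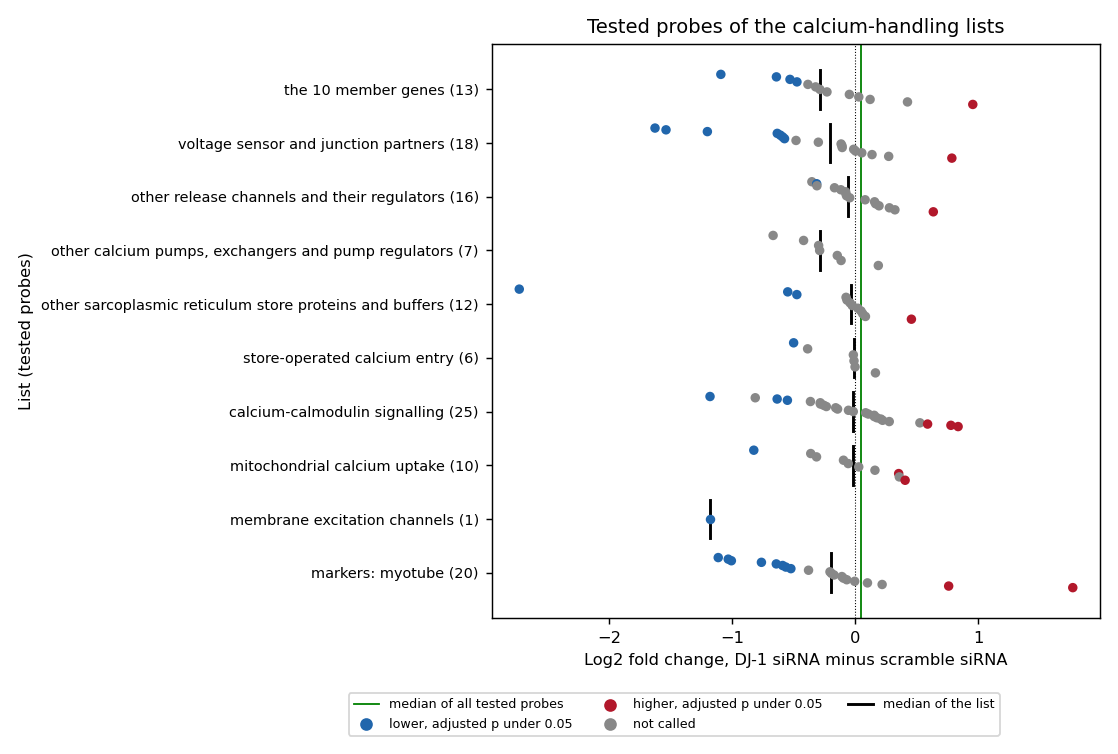
Log2 fold change of siDJ-1 against scramble siRNA (horizontal axis) for each tested probe of the 10 genes, of the 8 calcium lists and of the myotube markers (vertical axis, number of tested probes in brackets). Points are probes coloured by call, black bars are list medians and the green line is the median of all tested probes (0.05). The lowest point is Pvalb (-2.73), and the junction list holds 7 lower probes and 1 higher.

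Over all tested probes, the siDJ-1 arrays correlated with each other at 0.990 to 0.992 and the scramble arrays at 0.982 to 0.988. On the calcium-handling probes, a single siDJ-1 array was often the lowest. Of the 13 tested calcium-handling probes, 9 had their lowest normalized signal of all 6 arrays on siDJ-1 replicate 3, and 0 had their highest there. Without that array 2 of the 13 probes were called, Casq1 at -0.92 and Cacng1 at -0.59, and the same 2 were called without siDJ-1 replicate 1, at -1.20 and -0.64. The count was 3 when any scramble array was left out, and 4 in the absence of siDJ-1 replicate 2. The SD of a group ranged from 0.02 to 0.53 on the log2 scale over these probes, and the median standard error over beads was between 3.15% and 6.14% of the signal over the 16 probes. Over all probes, bead noise differed by group, with median standard errors of 11.3, 8.30 and 8.66 signal units in scramble against 7.17, 6.36 and 5.88. Its part in the calls was not tested.

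**Figure D5:**
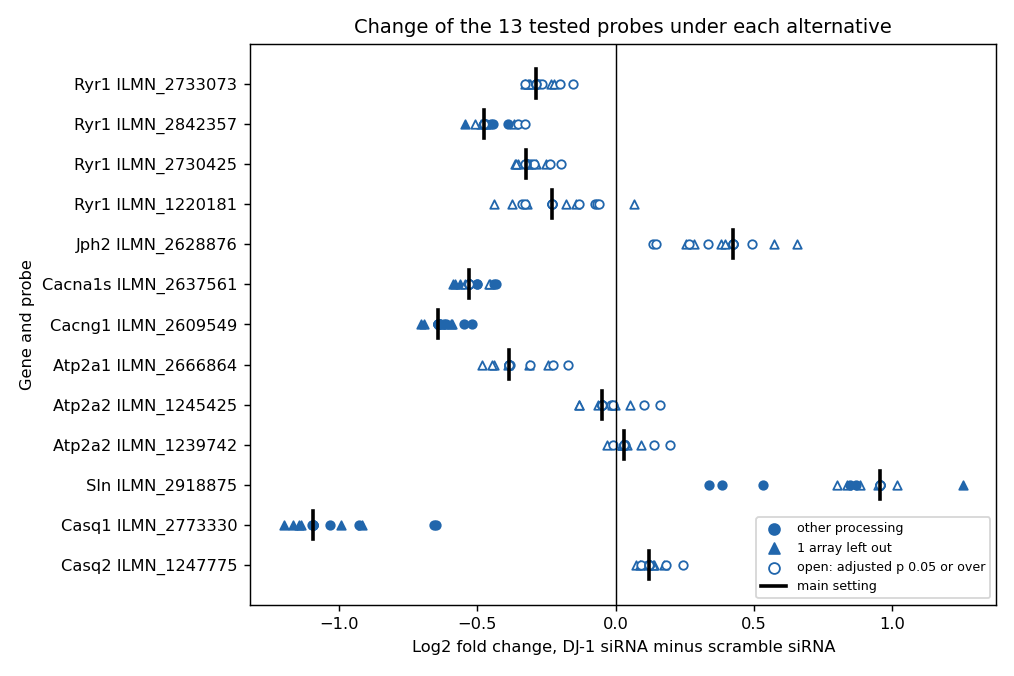
Log2 fold change (horizontal axis) of the 13 tested probes (vertical axis) under each alternative setting, with the main setting as a black bar. Circles are other ways of processing, triangles leave out 1 array, and open symbols have an adjusted p of 0.05 or over. Casq1 and Cacng1 have filled symbols throughout, while the probes of Atp2a2 lie on both sides of 0.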

How the data were processed

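The authors measured RNA of C2C12 myotubes on an Illumina mouse BeadChip and deposited, for each probe and array, the mean intensity without normalization or background subtraction. They also deposited the detection p-value, which sets the signal against the negative controls of the array, and, as other values, the number of beads with their standard error. In R 4.3.3 with limma 3.58.1, background was corrected by neqc (normexp, offset 16, controls inferred from the detection p-values), followed by quantile normalization and log2. The 17890 probes detected (p under 0.05) on 3 or more of 6 arrays went into lmFit and eBayes, with Benjamini-Hochberg adjustment over all of them. An adjusted p under 0.05 is a call. No fold is given for a probe not detected on any array of a group. The steps were tested on simulated data in which 200 brighter probes were changed by 1 log2 unit. They recovered 76.5% of these, with 10 false calls. Smaller changes and changes on dim probes were not simulated, so their recovery is not known.

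Genes were named by Entrez number (29586 probes), accession (2759) or symbol (2214) in the RefSeq table of GRCm38.p6, and otherwise (10722) as in the file. The members and lists were chosen with earlier results of these data known. Named genes are all probes of the 10 genes and Park7, of each calcium list the called probes (the 3 largest where more were called) and the brightest uncalled one, and of each marker list the brightest and any called probe. The 17 alternatives changed the background correction, normalization, offset (50), filter, prior variance, array weights, test (unmoderated), replicate block, probes per gene or left out 1 array.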

Additional observations from a re-analysis of the deposited data

How the results depend on the processing

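Of the tested calcium-handling probes, 5 were called in the main setting, 8 (1 higher, 7 lower) both with no background correction and with a trend in the prior variance, 3 (all lower) both with no filter and with an unmoderated test, and 2 to 4 with 1 array left out. Across the array, 5387 probes were called, 3519 with no filter and 2559 to 5271 with 1 array left out, while 25 probes of the calcium lists were called, and 12 to 23 with 1 array left out. With no filter the adjustment runs over 45281 probes, and with 1 array left out there are fewer samples; for the other settings the cause was not tested. The calsequestrin difference was -0.76 with no background correction and -0.84 with no background correction and a 75th percentile shift. The 75th percentile shift moved the median of all tested probes from 0.05 to 0.07. The strict filter (detection p under 0.01 on all 6 arrays) left no value for Sln, Jph2 and the dim Ryr1 probe.

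Some values changed sign between settings. With the 75th percentile shift they were Atp2a2 ILMN_1245425 (0.161), Acta1 (0.237), Acta2 ILMN_2693895 (0.0124), Micu2 (0.0665), Calm3 (0.112), Calu ILMN_2771956 (0.104) and Bin1 (0.0164). With that shift and no background correction they were Atp2a2 ILMN_1245425 (0.104), Acta1 (0.179), Micu2 (0.0113), Calm3 (0.0554) and Calu ILMN_2771956 (0.0469). With a mean over the probes of a gene they were Atp2a2 ILMN_1239742 (-0.00969), Ttn ILMN_2416670, ILMN_3128792 and ILMN_1223811 (each 0.0357), Calu ILMN_2771956 (0.139) and Asph ILMN_1233759 (-0.152), and with array weights Acta1 (0.00133) and Calm3 (0.016). With 1 array left out, Atp2a2 ILMN_1245425 ran from -0.134 to 0.0506, Atp2a2 ILMN_1239742 from -0.0297 to 0.0898, Ryr1 ILMN_1220181 from -0.439 to 0.0679, Acta1 from -0.0504 to 0.0665, Micu2 from -0.107 to 0.0111, Calm3 from -0.138 to 0.0235 and Calu ILMN_2771956 from -0.0683 to 0.00546. The cause was not tested.

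With the replicate number as a block, 4350 probes were called across the array, 4 of the calcium-handling probes and 20 of the calcium lists, and the Cacna1s probe had an adjusted p of 0.054 within a range of 0.00359 to 0.0664 over its alternatives. The deviations of arrays with the same number correlated at 0.0537, 0.0474 and 0.0199, so the numbers were not taken as pairs. Every array nevertheless correlated best with its own number, which is a hint from the data and not from the design.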
